A study of Mus musculus with 8 samples.

Results

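The genes described here are 8 of the 51912 in the count tables: Parp9, Parp10, Parp11, Parp12, Parp14 and Dtx3l, which are linked to the interferon response, and Parp1 and Parp2, relatives known for DNA repair. They were taken by name, with earlier results of these data known. All 8 passed the filter on low counts that left 16512 genes to test. RNA was sequenced from ear epidermal sheets of 8 mice, all 8 weeks old, with 1 mouse per library. The 4 mice of the A20KIKO group were A20F/F Krt5-CreERT2+, and the 4 of the A20WT group were A20F/F Krt5-CreERT2-. Both groups thus carried the conditional A20 (Tnfaip3) alleles, and both received 1 mg of tamoxifen into the peritoneum on each of 2 days in succession and were killed 7 days after the first dose. The Cre is fused to a modified oestrogen receptor and controlled by the Krt5 promoter, active in basal keratinocytes, so cells that do not use this promoter are not targeted. The A20WT group has no Cre, and an effect of the Cre itself cannot be told apart from that of the deletion.

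ADP-ribosyltransferases take ADP-ribose from NAD+ and attach it to proteins, and some also modify nucleic acids. Parp1 and Parp2 sense DNA strand breaks and build long poly(ADP-ribose) chains at them, while most other members of the family attach single units or, like Parp9, have little activity of their own. Several of the single-unit enzymes are induced by interferons and act against viruses. The protein of Parp9 forms a complex with Dtx3l, an E3 ubiquitin ligase of the Deltex family, and the comparison of A20KIKO with A20WT libraries asks which of these genes differ in epidermis after an induced loss of A20, a ubiquitin-editing inhibitor of NF-kB signalling and cell death.

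Promoter windows are shown first. The only window with a known interferon response sequence belonged to Parp11, which did not rise, and whether the sequence acts was not tested. The RefSeq table on GRCm38.p6 held 300-base windows (250 bases before to 50 after a gene start) for 5 of the 8 members, Parp1, Parp2, Parp11, Parp12 and Dtx3l, with 2 starts for Parp11. It held none for Parp9, Parp10 and Parp14, which all rose. Each window was searched on both strands for the core of the interferon-stimulated response element (ISRE), which is GAAA, any 2 bases and GAAA, for the core of the gamma-activated site (GAS), TTCNNNGAA, and for the kappaB consensus bound by NF-kB. An ISRE core was present in 3.44%, a GAS core in 8.30% and a kappaB consensus in 8.46% of all 32851 windows. Among the 6 windows of the members, the upstream start of Parp11 held 1 ISRE core (read on the minus strand as TTTCGATTTC, from 44 to 35 bases before the start, chr6:127446796-127446805) and 1 GAS core that overlaps it by its first bases (TTCTTGGAA, 37 to 29 bases before the start). The downstream start of Parp11 and the windows of Dtx3l, Parp12, Parp1 and Parp2 held none of the 3 motifs. The windows of the upstream Parp11 start (chr6:127446590-127446889, plus strand), of Dtx3l (chr16:35938978-35939277, minus strand) and of Parp12 (chr6:39118300-39118599, minus strand) follow, 5′ to 3′, with the ISRE and GAS cores in capitals.
Parp11, upstream start: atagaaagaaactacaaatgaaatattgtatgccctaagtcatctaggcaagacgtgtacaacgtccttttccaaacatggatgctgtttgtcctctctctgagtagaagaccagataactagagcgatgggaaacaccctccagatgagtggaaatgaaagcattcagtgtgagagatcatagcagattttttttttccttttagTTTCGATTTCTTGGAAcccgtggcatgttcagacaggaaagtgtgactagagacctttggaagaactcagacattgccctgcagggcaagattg
Dtx3l: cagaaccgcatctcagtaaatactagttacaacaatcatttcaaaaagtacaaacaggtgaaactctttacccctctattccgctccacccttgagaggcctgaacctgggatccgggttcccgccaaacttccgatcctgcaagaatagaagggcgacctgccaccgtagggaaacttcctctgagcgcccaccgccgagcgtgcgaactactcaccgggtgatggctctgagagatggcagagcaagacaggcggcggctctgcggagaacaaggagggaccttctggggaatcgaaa
Parp12: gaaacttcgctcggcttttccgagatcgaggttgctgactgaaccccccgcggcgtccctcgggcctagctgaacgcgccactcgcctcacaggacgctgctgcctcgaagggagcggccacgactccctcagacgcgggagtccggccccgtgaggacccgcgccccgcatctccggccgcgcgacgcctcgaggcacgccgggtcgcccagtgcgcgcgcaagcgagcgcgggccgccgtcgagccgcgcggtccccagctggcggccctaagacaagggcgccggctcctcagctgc
The Parp12 window was 73.7% G and C with 46 CG dinucleotides, the Dtx3l window 54.3% with 17, and the upstream Parp11 window 42.0% with 5. A match describes the letters alone, and the absence of one says only that these letters are not in this window.

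Summed counts ran from 40451075 to 89106039 in the A20KIKO libraries and from 52972464 to 89624373 in the A20WT libraries. Tnfaip3 had 90.9, 55.0, 64.0 and 86.2 CPM (counts scaled to a common library size) in the libraries labelled A20KIKO mouse 1 to 4, and 13.5, 19.6, 17.7 and 15.4 CPM in those labelled A20WT. The targeted gene was thus higher in the libraries labelled as its deletion, and since a whole-gene count includes exons outside the deleted part, it does not test the deletion. Groups are therefore named throughout as labelled. Keratinocyte markers summed to 43589 to 56578 CPM in A20KIKO and 43203 to 64568 CPM in A20WT libraries, and 2 of the 10, Krt5 and Flg2, fell.

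Of the 6 interferon-linked members, 5 rose in the A20KIKO libraries, namely Parp9, Parp10, Parp12, Parp14 and Dtx3l, and Parp11 did not pass the test. Neither Parp1 nor Parp2 passed. A rise was called in 2.43% of all tested genes, a fall in 1.06% and either in 3.49%, by edgeR's quasi-likelihood test at a Benjamini-Hochberg adjusted p under 0.05. Before adjustment, 2543 of the 16512 tested genes had a p under 0.05 by that test. The 5 risen members had all 4 A20KIKO libraries above all 4 A20WT libraries, which held for 5.78% of tested genes. Parp9, Parp12, Parp14 and Dtx3l rose at least 2-fold, as did 1.74% of tested genes, and all of these but Dtx3l rose at least 4-fold, as did 0.866%. The median log2 change of the 6 interferon-linked members was 1.99, beside -0.01 over all tested genes. In whole tissue, a higher level per cell cannot be told apart from more cells of a type that expresses the gene.

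**Figure D1:**
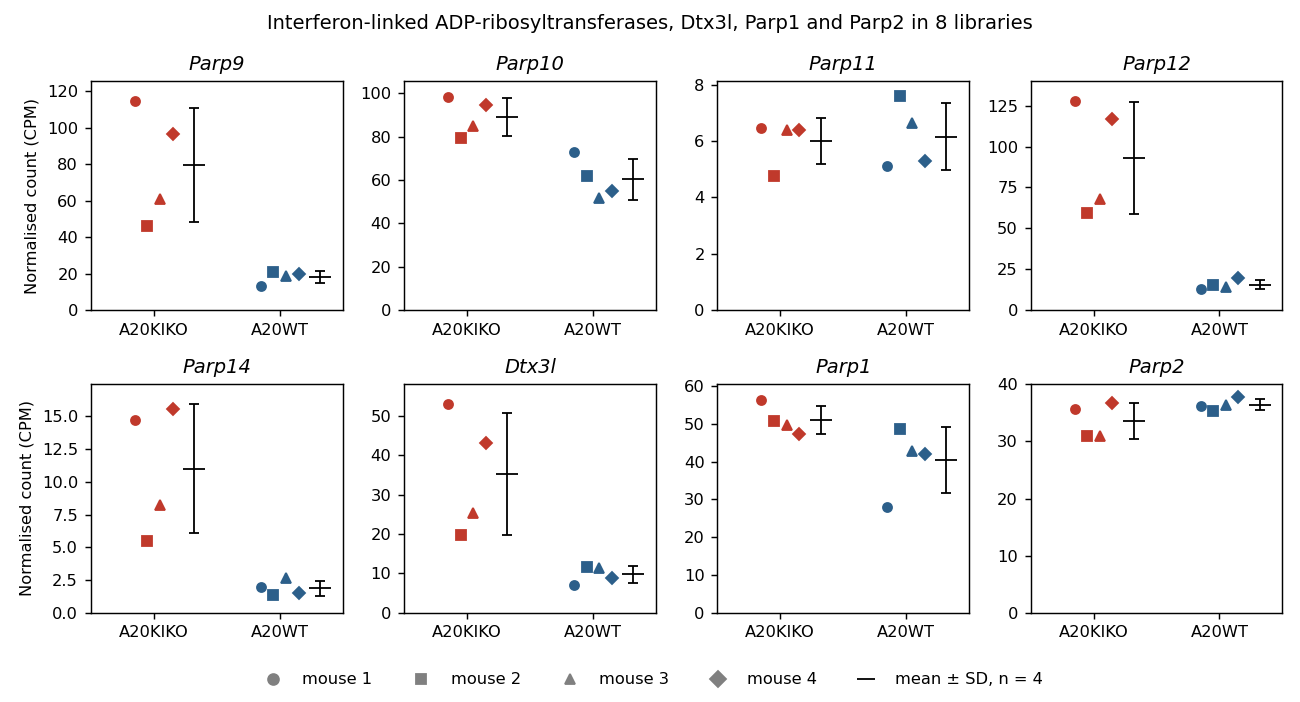
Normalised counts (CPM, linear axis from 0) of the 8 genes in each library, A20KIKO left and A20WT right, with a symbol per mouse and the mean ± SD of 4 libraries. In Parp9, Parp10, Parp12, Parp14 and Dtx3l every A20KIKO point lies above every A20WT point, while Parp11, Parp1 and Parp2 overlap between the groups.

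Parp12, a transferase with CCCH zinc fingers that attaches single ADP-ribose units, had the highest log2 change of the members. It had 128, 59.6, 67.9 and 117 CPM in A20KIKO mice 1 to 4, and 13.2, 15.4, 14.4 and 19.4 CPM in A20WT mice 1 to 4. Mice 1 and 4 were the highest A20KIKO libraries, and the groups did not overlap. The means were 92.9 ± 34.2 and 15.6 ± 2.68 CPM (SD, n = 4 each), and the fold was 5.96 (edgeR adjusted p = 0.000379 for a log2 change of 2.57, SE 0.25). Only 172 of the 16512 tested genes (1.04%) had a higher log2 change.

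Parp14, which carries macrodomains that bind ADP-ribose and is known as a cofactor of Stat6, rose by a like factor from the lowest level of the 8 genes. It had 14.7, 5.49, 8.26 and 15.6 CPM in A20KIKO mice 1 to 4, and 1.97, 1.35, 2.63 and 1.52 CPM in A20WT mice 1 to 4. Mice 1 and 4 were again the highest, the groups did not overlap, and the A20WT libraries held 75 to 227 counts of it. The rise of Parp14 was 5.87-fold (edgeR adjusted p = 0.00184 for a log2 change of 2.55, SE 0.34).

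Parp9 rose 4.37-fold. It had 115, 46.3, 60.9 and 96.4 CPM in A20KIKO mice 1 to 4, and 13.5, 21.1, 18.8 and 19.6 CPM in A20WT mice 1 to 4. The groups did not overlap, with A20KIKO mouse 2 the nearest to the A20WT libraries (edgeR adjusted p = 0.00184 for a log2 change of 2.13, SE 0.27). Its partner Dtx3l had 53.1, 19.7, 25.3 and 43.2 CPM in A20KIKO mice 1 to 4, and 6.98, 11.6, 11.4 and 8.91 CPM in A20WT mice 1 to 4. Here too the groups did not overlap and A20KIKO mouse 2 was the nearest to the A20WT libraries. The rise of Dtx3l was 3.64-fold (edgeR adjusted p = 0.00795 for a log2 change of 1.86, SE 0.31). The adjusted p of Dtx3l was 0.0621 without A20WT mouse 1, its lowest library of that group.

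Parp10, a transferase of single units that was already well expressed in the A20WT libraries, rose 1.48-fold. It had 98.3, 79.4, 84.9 and 94.5 CPM in A20KIKO mice 1 to 4, and 72.9, 61.8, 51.7 and 55.0 CPM in A20WT mice 1 to 4. The groups did not overlap, but the gap between A20KIKO mouse 2 and A20WT mouse 1 was narrow. The edgeR adjusted p was 0.0304 for a log2 change of 0.56 (SE 0.13), and this call ended under several settings. Its adjusted p was 0.0585 to 0.121 without A20KIKO mouse 1, 3 or 4 or without A20WT mouse 2, 3 or 4, and 0.0522 with upper-quartile scaling. Of the exon bases of Parp10, 4.80% are shared with Plec on the same strand.

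Parp11, a small single-unit transferase whose upstream window held the ISRE and GAS cores shown above, was flat within its error. It had 6.47, 4.78, 6.40 and 6.39 CPM in A20KIKO mice 1 to 4, and 5.13, 7.60, 6.65 and 5.28 CPM in A20WT mice 1 to 4. The means of 6.01 ± 0.821 and 6.16 ± 1.18 CPM (SD, n = 4 each) differed by less than the spread between mice (log2 change -0.04, SE 0.18, edgeR adjusted p = 0.955). The 95% interval of the fold was 0.741 to 1.28, so a rise as large as that of Parp10 lies outside it. The counts do not separate the 2 starts of this gene.

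Parp1, the main enzyme of poly(ADP-ribose) synthesis at strand breaks, had 56.3, 50.8, 49.7 and 47.4 CPM in A20KIKO mice 1 to 4, and 28.0, 48.5, 42.9 and 42.0 CPM in A20WT mice 1 to 4. The groups overlapped, and A20WT mouse 1 was lower than the other libraries. That library was also the lowest of its group for Parp9, Parp11, Parp12 and Dtx3l. It was the highest of its group for Parp10, and neither for Parp14 and Parp2. The fold of Parp1 was 1.27 with a 95% interval of 0.999 to 1.60 (log2 change 0.34, SE 0.16, edgeR adjusted p = 0.326). Without A20WT mouse 1 the log2 change of Parp1 was 0.20. Parp2, the second enzyme activated by strand breaks, had 35.7, 30.9, 30.9 and 36.8 CPM in A20KIKO mice 1 to 4, and 36.1, 35.4, 36.3 and 37.8 CPM in A20WT mice 1 to 4. Its fold was 0.922 with a 95% interval of 0.781 to 1.09 (log2 change -0.12, SE 0.11, edgeR adjusted p = 0.698). The intervals of both lie below the folds of Parp9, Parp12, Parp14 and Dtx3l, though the difference between genes was not tested.

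The A20KIKO mice differed among themselves in the same order for most of the risen members. Parp9, Parp10, Parp12 and Dtx3l each were highest in mouse 1, followed by mouse 4, mouse 3 and mouse 2. This full order held in 28.7% of the 401 risen genes and in 5.73% of all tested genes. Parp14 differed only in that mouse 4 stood above mouse 1. Mice 1 and 4 were both above mice 2 and 3 in 5 of the 6 interferon-linked members, in 234 of the 401 risen genes (58.4%) and in 22.4% of all tested genes. Parp2, which did not pass the test, had the same split of mice, and Parp1 and Parp11 did not. Mice 1 and 4 also had the largest summed counts of the A20KIKO group, 86290868 and 89106039. Mice 2 and 3 had 58156350 and 40451075, and a link of the order to depth was not tested. The highest A20KIKO library held 2.14 times the CPM of the lowest for Parp12, 2.48 times for Parp9, 2.69 times for Dtx3l and 2.84 times for Parp14, but 1.24 times for Parp10. Isg15, a ubiquitin-like interferon-induced protein, had the same order of mice, and so did Tnfaip3. The coefficient of variation was higher in A20KIKO than in A20WT libraries for Parp9, Parp12, Parp14, Dtx3l and Parp2, for example 43.8% and 22.7% for Dtx3l. It was lower in A20KIKO libraries for Parp10 (9.72% and 15.6%), Parp11 (13.7% and 19.1%) and Parp1 (7.42% and 21.6%).

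Some monocyte and macrophage markers were also higher in the A20KIKO libraries, and the tested ones that were not called had log2 changes of 0.18 to 2.63. Of 12 matched markers 10 were tested and 4 rose, the complement subunits C1qa, C1qb and C1qc and the monocyte antigen Ly6c2 (6 higher at an unadjusted p under 0.05, and 8 higher in DESeq2). The summed level of the list was 76.2, 31.0, 48.2 and 122 CPM in A20KIKO mice 1 to 4 and 23.6 to 30.8 CPM in the A20WT libraries. Cd14, named after its value was seen and not called, held 52.4 CPM of the sum in A20KIKO mouse 4. It had 2.70 to 4.09 CPM in the other A20KIKO libraries. The 4 called markers did not overlap between the groups. C1qa had 8.78, 3.82, 5.64 and 6.51 CPM in A20KIKO mice 1 to 4 and 1.12 to 2.02 CPM in the A20WT libraries, and A20KIKO mouse 2 was the lowest of its group for all 4, as for the risen members. The summed level of 8 leukocyte markers was 225 to 372 CPM in A20KIKO and 181 to 247 CPM in A20WT libraries, that of 7 Langerhans cell markers 2618.5 to 2887 and 2184 to 2918 CPM, and that of 8 epidermal T cell markers 134 to 139 and 126 to 150 CPM. In these 3 lists edgeR, DESeq2 and limma-voom called 0, and the median log2 changes were 0.40, 0.16 and 0.01. At an unadjusted p under 0.05, 2 leukocyte and 2 Langerhans cell markers were higher. Of the epidermal T cell markers, 1 was higher and 1 lower. The 8 neutrophil markers, of which 1 was tested and 0 had an unadjusted p under 0.05 or a call by any of the 3 tools, summed to 94.3 CPM in A20KIKO mouse 4, 9.81 to 12.7 CPM in the other A20KIKO libraries and 3.57 to 13.1 CPM in the A20WT libraries. Melanocyte markers summed to 49.5 to 230 CPM in A20KIKO and 44.9 to 59.9 CPM in A20WT libraries, with 0 of 7 called by edgeR or limma-voom, 5 higher at an unadjusted p under 0.05 and 2 higher in DESeq2. Fibroblast markers summed to 15.1 to 36.7 and 39.7 to 55.3 CPM without overlap, with 0 of 5 called by edgeR, 4 lower at an unadjusted p under 0.05, 3 lower in DESeq2 and 2 lower in limma-voom. Endothelial markers summed to 1.00 to 2.21 and 0.864 to 1.54 CPM, with 0 of 2 under an unadjusted p of 0.05 and 0 called by the 3 tools. No marker of any list was at 0 in all libraries. The part of these cells in the rises was not tested. Without A20KIKO mouse 4, the log2 changes were 2.02 for Parp9, 2.45 for Parp12, 2.34 for Parp14 and 1.75 for Dtx3l, and each kept its call (edgeR adjusted p = 0.000377 to 0.00987). That fit kept A20KIKO mouse 1, the highest library for C1qa, C1qb, C1qc and Ly6c2. It therefore does not test the part of these cells.

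Levels were compared between genes as CPM per kilobase of merged exons. In the A20WT libraries the order was Parp10 (14.1 ± 2.20), Parp2 (10.04 ± 0.281), Parp1 (7.62 ± 1.65), Parp12 (3.91 ± 0.672), Parp9 (3.74 ± 0.681), Dtx3l (1.70 ± 0.386), Parp11 (0.877 ± 0.168) and Parp14 (0.201 ± 0.0615 CPM per kilobase, SD, n = 4 each). Of neighbours in this order only Parp12 and Parp9 had overlapping ranges. In the A20KIKO libraries Parp12 came first with 23.3 ± 8.56, followed by Parp10 (20.9 ± 2.03), Parp9 (16.3 ± 6.46), Parp1 (9.64 ± 0.715), Parp2 (9.26 ± 0.855), Dtx3l (6.17 ± 2.71), Parp14 (1.18 ± 0.528) and Parp11 (0.855 ± 0.117 CPM per kilobase, SD, n = 4 each). There the ranges of neighbours overlapped except for Dtx3l above Parp14. Parp14 thus rose 5.87-fold and was still seventh of the 8 genes.

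Over 16 measured ADP-ribosyltransferase genes, the summed level was 128, 84.3, 93.2 and 128 CPM per kilobase in A20KIKO mice 1 to 4 and 58.2, 69.0, 65.3 and 65.0 CPM per kilobase in A20WT mice 1 to 4. Parp9, Parp10, Parp11, Parp12 and Parp14 together made up 63.2%, 52.5%, 54.9% and 57.6% of that sum in the A20KIKO libraries, against 41.4%, 34.6%, 31.8% and 34.9% in the A20WT libraries. The other 11 genes summed to 45.8 ± 6.30 and 41.5 ± 5.11 CPM per kilobase (SD, n = 4 each), ranges that overlapped. These sums describe the members as chosen and carry no test.

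**Figure D2:**
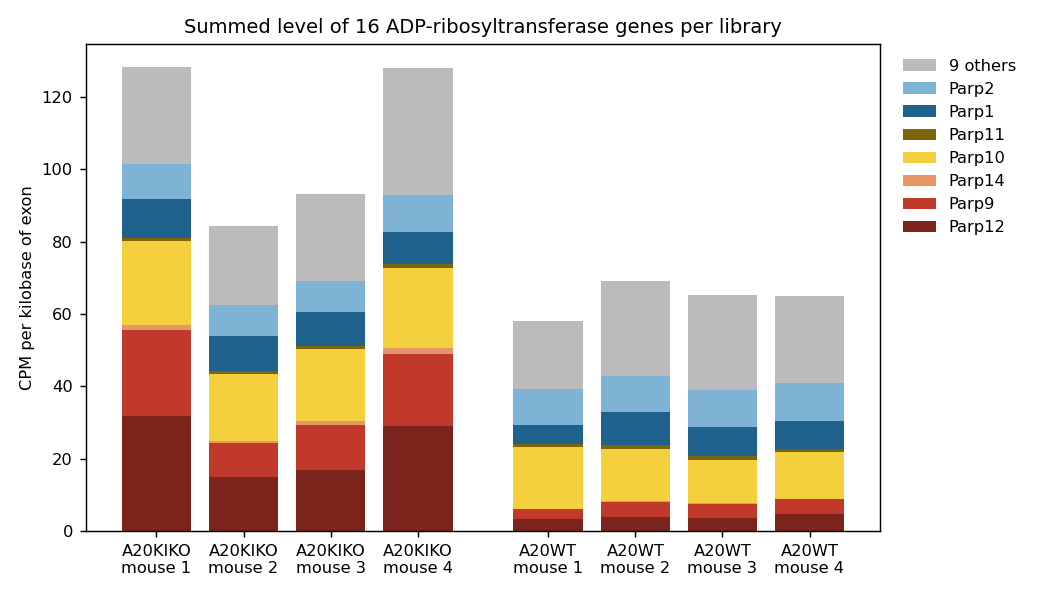
Stacked bars of the level per library, in CPM per kilobase of exon from 0, of 16 ADP-ribosyltransferase genes, with A20KIKO mice left and A20WT mice right. The Parp12 and Parp9 segments are taller in each A20KIKO bar than in any A20WT bar, and A20KIKO mice 1 and 4 have the tallest bars, 128 CPM per kilobase each.

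None of the 9 other ADP-ribosyltransferase genes passed edgeR's test (0 of 9, with 2 higher and 0 lower at an unadjusted p under 0.05, 1 higher in DESeq2 and 0 in limma-voom). Their median log2 change was 0.08, beside -0.01 for all tested genes. A count of 0 among 9 is near the 3.49% called over all tested genes. Zc3hav1, also known as Parp13, is an antiviral RNA-binding relative without transferase activity. It had 51.4 ± 11.1 CPM in A20KIKO and 35.1 ± 3.02 CPM in A20WT libraries (SD, n = 4 each). Its groups did not overlap, but it did not pass (log2 change 0.55, SE 0.15, edgeR adjusted p = 0.0769), and it was the gene of this list that DESeq2 called. The tankyrase Tnks2, a poly(ADP-ribose) enzyme of Wnt and telomere biology, had 49.3 ± 1.87 and 46.3 ± 14.5 CPM (log2 change 0.09, edgeR adjusted p = 0.895). Parp3, named after its value was seen, had an edgeR adjusted p of 0.240 for a log2 change of 0.65 (SE 0.26), above that of Parp10 but with a wider error.

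**Figure D3:**
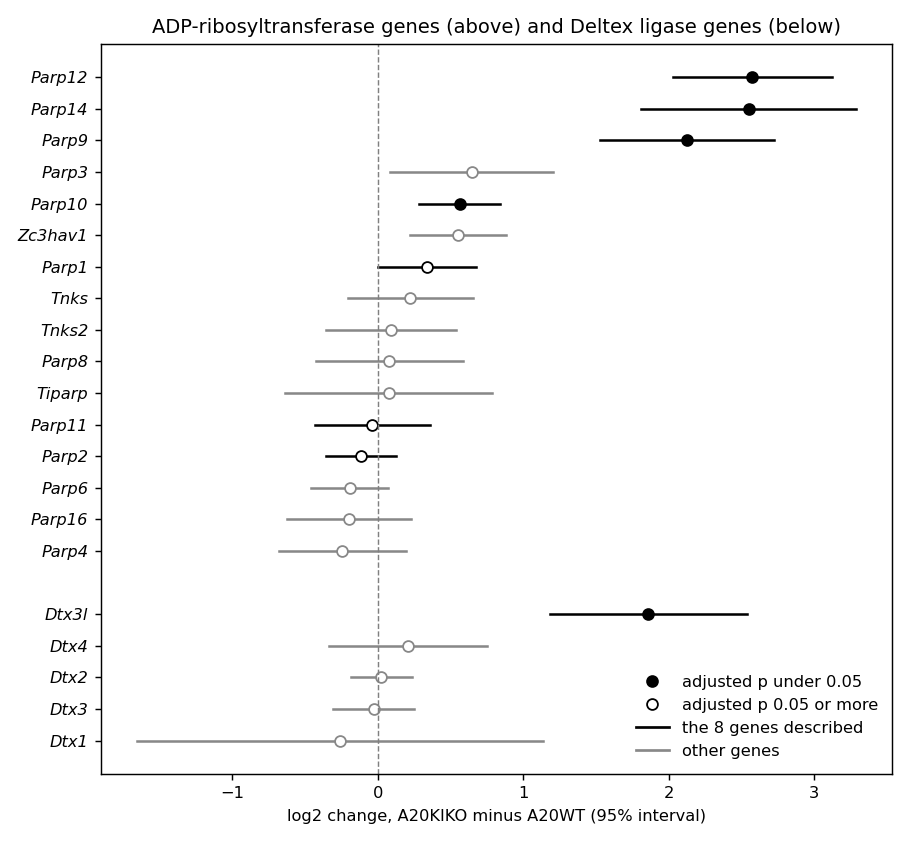
Log2 change (A20KIKO minus A20WT) with its 95% interval for 16 ADP-ribosyltransferase genes, above, and 5 Deltex ligase genes, below. Black marks the 8 genes described and grey the others, and filled points passed an adjusted p of 0.05. Parp12, Parp14, Parp9 and Dtx3l stand at 2.57, 2.55, 2.13 and 1.86, and the upper bounds of the grey genes reach 1.21 at most.

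Genes that act on the same chemistry were not called by edgeR, beside 3.49% called in either direction over all tested genes. At that share a list of this length may hold 0, so these counts are no result about the lists. Among 13 tested genes that remove or bind ADP-ribose, 0 passed edgeR's test (0 higher and 1 lower at an unadjusted p under 0.05), the median log2 change was -0.02, and limma-voom called 0. DESeq2 called 1, Trpm2, a channel opened by ADP-ribose, which had 0.245 ± 0.130 CPM in A20KIKO and 0.0402 ± 0.0360 CPM in A20WT libraries and had not passed the filter on low counts. The histone H2afy, whose macrodomain binds ADP-ribose, had 291 ± 11.3 and 278 ± 31.0 CPM (log2 change 0.07, edgeR adjusted p = 0.852), and the hydrolase Adprhl2 had 123 ± 9.14 and 140 ± 13.1 CPM (log2 change -0.19, edgeR adjusted p = 0.442). Among 17 tested genes of NAD synthesis and use, 0 passed edgeR's test (1 higher and 2 lower at an unadjusted p under 0.05, and 0 in DESeq2 and limma-voom), with a median log2 change of -0.03. The kinase Nadk, which makes NADP, had 232 ± 15.5 and 199 ± 27.0 CPM (log2 change 0.22, edgeR adjusted p = 0.425), and Naprt, which makes NAD from nicotinic acid, had 81.9 ± 11.2 and 83.5 ± 11.9 CPM (log2 change -0.03, edgeR adjusted p = 0.954). Nampt, the main enzyme of NAD salvage, was named after its value was seen. It had 63.0 ± 7.22 CPM in A20KIKO and 47.0 ± 6.67 CPM in A20WT libraries without overlap, and did not pass (log2 change 0.42, SE 0.13, edgeR adjusted p = 0.121).

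Among 14 partners of Parp1 and Parp2 in strand break repair, 0 passed edgeR's test, with a median log2 change of -0.01. At an unadjusted p under 0.05 there were 1 higher and 0 lower, and DESeq2 and limma-voom called 0. Over all tested genes, edgeR called 3.49%, and 2543 of 16512 had an unadjusted p under 0.05. The counts of this list and of the Deltex ligases below are not above those shares. Pcna, the sliding clamp of DNA replication, had 95.01 ± 7.10 and 94.1 ± 13.7 CPM, and the repair polymerase Polb had 84.0 ± 3.19 and 86.7 ± 7.93 CPM in A20KIKO and A20WT libraries (SD, n = 4 each, edgeR adjusted p = 0.973 and 0.896). Of the 4 other Deltex ligases, 0 passed edgeR's test (0 at an unadjusted p under 0.05, and 0 in DESeq2 and limma-voom). Dtx2 had 93.6 ± 4.33 and 91.9 ± 5.71 CPM, and Dtx4 had 19.1 ± 3.36 and 16.6 ± 6.65 CPM (edgeR adjusted p = 0.943 and 0.775). In the list of interferon receptors, signalling genes and reference interferon-stimulated genes, 20 of 25 rose and 0 fell, with a median log2 change of 1.99 and a range of -0.09 to 9.36. This list was chosen with earlier results of these data known, so its count is a description and no separate support. Its called members with the smallest adjusted p were Usp18, Isg15 and Ifit1, with log2 changes of 4.05, 4.79 and 7.89.

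Parp9, Dtx3l and Parp14 lie within 139.7 kb of mouse chromosome 16, and their immediate neighbours did not pass the test. On GRCm38 (GENCODE M21), Parp14 (ENSMUSG00000034422) spans 35832874 to 35871544 on the minus strand, Dtx3l (ENSMUSG00000049502) 35926511 to 35939151 on the minus strand and Parp9 (ENSMUSG00000022906) 35938470 to 35972605 on the plus strand. Parp9 and Dtx3l are arranged head to head and overlap by 682 bases. Of their exon bases 458 are shared, 9.40% of those of Parp9 and 8.00% of those of Dtx3l, and since the library keeps no strand, reads there cannot be assigned to either gene. Within 200 kb of the 3 genes, 8 other genes were tested and 0 passed edgeR's test (1 lower at an unadjusted p under 0.05, which was Dirc2 and which DESeq2 called, and 0 in limma-voom), with log2 changes of -0.42 to 0.56 and a median of 0.03. Kpna1, the nearest protein-coding gene past the end of Parp9, had a log2 change of 0.11 (edgeR adjusted p = 0.847), and Hspbap1 beyond Parp14 had -0.12 (edgeR adjusted p = 0.708). Both were named for their position. Among all tested genes a rise was called in 2.43% and a fall in 1.06%, and 2543 of 16512 had an unadjusted p under 0.05. Around all 8 members, and not above those shares, 1 of 44 tested neighbours rose and 0 fell (5 at an unadjusted p under 0.05). This was Grina, 3.32 kb from the start of Parp10 on chromosome 15, with 185 ± 17.6 CPM in A20KIKO and 139 ± 3.82 CPM in A20WT libraries (log2 change 0.41, SE 0.10, edgeR adjusted p = 0.0473). It was not called under most of the other settings, and with upper-quartile scaling 0 neighbours rose and 1 fell.

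**Figure D4:**
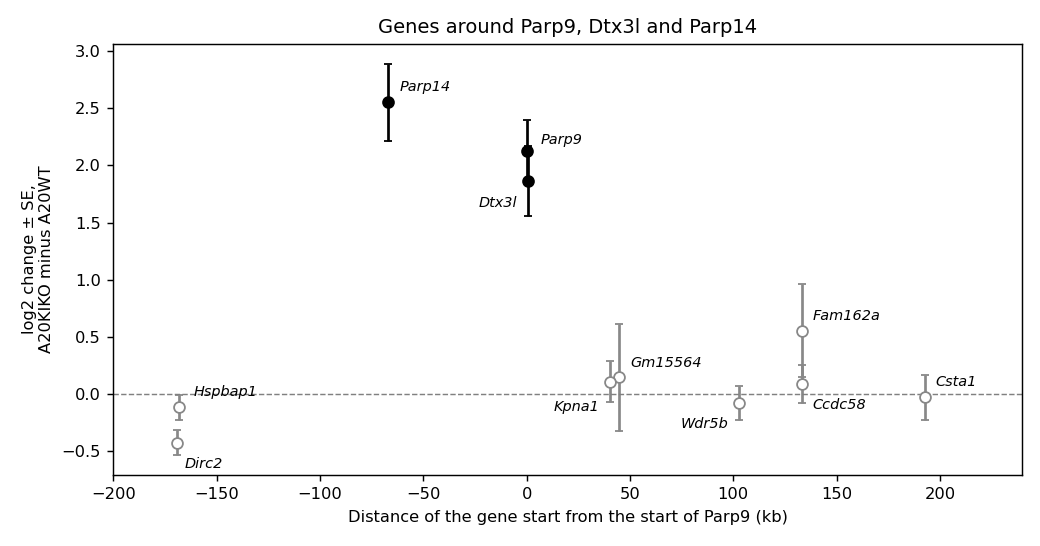
Log2 change ± SE (A20KIKO minus A20WT) of the tested genes around Parp9, plotted by the distance of each gene start from that of Parp9 in kb. Parp14 (-66.9 kb), Parp9 and Dtx3l (0.68 kb) lie between 1.86 and 2.55, and the 8 other genes lie between -0.42 and 0.56 with open points for an adjusted p of 0.05 or more.

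The ratio of Dtx3l to Parp9, per kilobase, was 0.394, 0.363, 0.354 and 0.381 in A20KIKO mice 1 to 4 and 0.441, 0.467, 0.519 and 0.388 in A20WT mice 1 to 4. The means were 0.373 ± 0.0180 and 0.454 ± 0.0549 (SD, n = 4 each), and the ranges overlapped at A20KIKO mouse 1 and A20WT mouse 4. Over the 8 libraries the log2 levels of Parp9 and Dtx3l, each set against its own A20WT mean, differed by a root mean square of 0.23, the least of any pair among the 6 interferon-linked members. Between Parp12 and Parp14 it was 0.38.

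By the same measure over the 8 libraries, the nearest of 12894 genes (mean of at least 1 CPM) to Parp9 were Ifih1, a sensor of viral RNA, at a root mean square difference of 0.16, then Tnfaip3 at 0.19 and the interferon-induced GTPase Irgm1 at 0.19. Nearest to Dtx3l were Ddx58, which encodes the RNA sensor RIG-I, Ifih1 and the transcription factor Stat2, at 0.17, 0.19 and 0.20. The 3 nearest genes of Parp12 were Igtp, an interferon-induced GTPase, Ube2l6, the conjugating enzyme of Isg15, and Lgals3bp, a secreted glycoprotein, at 0.14, 0.20 and 0.24. Parp14 had the same 3 genes nearest to it, at 0.27, 0.28 and 0.24. For Parp10 they were Pomt2, Gstp3 and Shisa5, at 0.10, 0.11 and 0.12, and for Parp11 Suz12, Arfgef1 and Creb1, at 0.06, 0.07 and 0.07. The difference is smaller for genes with little change, since each profile is set against its own A20WT mean.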

How the data were processed

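Poly-adenylated RNA was copied, amplified and tagmented with SMART-Seq v4 and Nextera kits and read as 150-base pairs, per the labels' protocols, so strand and molecular identifiers are not kept. The deposited files hold raw counts per Ensembl gene in 2 lanes per library. The submitters' processing notes name STAR 2.4.2a, Picard 1.139, HTSeq 0.6.1p1, GRCm38.p5 and GRCh38 without roles. No source used here gives the annotation release or the counting options.

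Lanes were summed, and 51633 of 51912 identifiers matched a symbol. In R 4.3.3, edgeR 4.0.16 kept 16512 genes (filterByExpr, minimum count 10, total 15), scaled them by TMM and fitted a robust quasi-likelihood model with group as its only term. Calls were two-sided at a Benjamini-Hochberg adjusted p under 0.05 over all tested genes. SE is the absolute log2 change over the square root of F. Intervals of 95% use the degrees of freedom of the fit and are for the change between groups, not for the range of single mice. Log2 CPM used a prior count of 2. Descriptions were made with pandas 2.3.3 and NumPy 2.4.6 in Python 3.11.15, and plots with Matplotlib 3.10.9. Alternatives included DESeq2 1.42.0 and limma 3.58.1 (voom). The fit was run on counts simulated with the same spread in both groups, which does not test the unequal spread between the groups seen here.

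The members and lists were chosen with earlier results of these data known. Named were the members, Tnfaip3, of each list up to 3 called genes with the smallest adjusted p (or the 2 with the highest mean), the 3 genes nearest to each interferon-linked member, and called neighbours within 200 kb. Any other name is marked where given.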

Additional observations from a re-analysis of the deposited data

Results flagged for a closer look

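Among 46 groups of 4 libraries examined for a library far from the others, 2 were found, where chance gives about 1 in 20. Parp11 had 4.78 CPM in A20KIKO mouse 2, below 6.39 to 6.47 CPM in the other A20KIKO libraries. A20KIKO mouse 2 was also the lowest of its group for Parp9, Parp10, Parp12, Parp14 and Dtx3l. Pcna had 114 CPM in A20WT mouse 1, the highest of its group, a library in which Parp1 was low at 28.0 CPM.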

How the results depend on the processing

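Parp9, Parp12 and Parp14 kept their rise and their call under each of the 13 other settings and without each of the 8 libraries, with log2 changes of 1.90 to 2.31, 2.38 to 2.74 and 2.34 to 2.78 when a library was left out. Parp1 and Parp2 stayed uncalled in all of these. Left-out libraries gave 1.60 to 2.06 for Dtx3l, 0.50 to 0.67 for Parp10, 0.20 to 0.44 for Parp1 and -0.16 to -0.08 for Parp2. The correlation of same-numbered libraries was 0.04, 0.06, -0.01 and 0.24, the last being the highest of any A20KIKO library with any A20WT library. These values cannot show whether the mice were paired by replicate number. With the replicate number as a block, Dtx3l had a log2 change of 1.78 and an adjusted p of 0.0581, and 0 neighbouring genes were called. Parp10 was not called against a 1.5-fold change or at an adjusted p under 0.01 (log2 change 0.56 in both), nor with upper-quartile scaling (0.52). The log2 change of Parp11, uncalled throughout, turned to 0.023 with the second lane alone, and was -0.11 to 0.080 with a library left out (0.06 without A20KIKO mouse 2, 0.080 without A20WT mouse 2 and 0.002 without A20WT mouse 3). The number of members called was 4 or 5 in every setting. The count of all genes called was 576, and 374 at 5 CPM in 4 libraries, 1170 with DESeq2 (763 higher and 407 lower), 200 against a 1.5-fold change, 250 at an adjusted p under 0.01, and 348 to 619 with a library left out (348 without A20KIKO mouse 1 and 355 without A20WT mouse 3). Of the other ADP-ribosyltransferases, 1 was called with DESeq2, 1 with no filter, and 0 to 1 with a library left out. DESeq2 called 1 gene that removes or binds ADP-ribose and 2 neighbouring genes. The neighbour count was 0 at 5 CPM in 4 libraries, with either lane alone, with limma-voom, with no filter, against a 1.5-fold change and at an adjusted p under 0.01, and 0 to 1 with a library left out. With upper-quartile scaling it was 0 higher and 1 lower, against 1 higher and 0 lower with TMM. Of the 3 genes nearest to Parp10, 1 remained at a mean of at least 5 CPM. Without division by length, the ratio of Dtx3l to Parp9 was 0.438 in A20KIKO and 0.533 in A20WT libraries. The cause of these differences was not tested. Parp14 had the fewest counts of the members in the A20WT libraries, 75 to 227, and how far depth limits its precision was not tested.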
